A study of Homo sapiens with 9 samples.

Results

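The S100 gene cluster of chromosome 1 was described after hairpins against CTDP1 in MDA-MB-231, a mesenchymal line from a human breast cancer that lacks hormone receptors. CTDP1 encodes a phosphatase of the RNA polymerase II tail. The members are the 12 intervals that lay wholly in the hg19 region holding S100A6 to S100A1, of 55527 intervals in the deposited files. The first starts at chr1:153506079 and the last ends at chr1:153606873. The region was set by position, not by any measured value. Of these, 9 start within 1 kb of the hg19 start of an S100 gene and carry its name here (S100A6, S100A5, S100A4, S100A3, S100A2, S100A16, S100A14, S100A13 and S100A1). The other 3 have no such start and are given by position and length.

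The study compared 3 groups of 3 libraries each: cells infected with a lentivirus carrying the hairpin shCTDP1-#1, with shCTDP1-#2, or with the scrambled hairpin shScr. Per the labels' protocols, infection and puromycin selection were the same for all groups. Whether replicate libraries stem from separate cultures is not stated, so p-values reflect only the variation among these libraries, possibly technical. The level of CTDP1 and of markers of the cell line was not analysed here. Each value is in TPM, a measure of transcript abundance that is scaled by transcript length and to the same total in every library. The depth of the libraries is therefore unknown. One library stood apart. The mitochondrial share of TPM was 1.65% to 2.29% in the shCTDP1 libraries. It was 4.49%, 1.12% and 1.66% in shScr replicates 1, 2 and 3.

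S100 proteins are small calcium-binding proteins. Each chain holds a pair of EF-hand calcium-binding loops, and the chains usually act as dimers that open a binding surface for partner proteins when calcium is bound. Most of the human genes lie next to each other on the long arm of chromosome 1. In breast cancer the family is best known through S100A4, also called metastasin, which binds non-muscle myosin and is linked to cell motility.

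In GENCODE v29, which is on another build, 8 of the 9 named genes lie on the minus strand and S100A1 lies on the plus strand. The length of the interval equalled that of the GENCODE v29 gene of the same name for 7 of the 9. S100A13 (15306 bases here, 12574 there) and S100A1 (4112 here, 4114 there) were the exceptions. Several members overlap. S100A3 lies wholly within S100A4, and S100A1 lies wholly within S100A13. The library kit does not mark strand, so reads of overlapping members are divided between them by the authors' quantification. The levels of the low members of each overlap are uncertain for that reason.

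The results turn on S100A13, an abundant member that rose with both hairpins, and on S100A6, the most abundant one. The stretches before their starts are therefore shown. They are the 250 bases before each start that RefSeq lists on GRCh38.p14, on the minus strand, read 5′ to 3′. RefSeq lists 3 starts for S100A13, at chr1:153634362-153634611, chr1:153627506-153627755 and chr1:153627240-153627489 for the stretch before each, and 1 for S100A6, at chr1:153535992-153536241. Capitals mark matches on either strand to TATAAA, the letters of a TATA box, to GGGCGG, the letters bound by SP1-type factors, or to TGANTCA, the letters of AP-1 sites.
S100A13 start 1: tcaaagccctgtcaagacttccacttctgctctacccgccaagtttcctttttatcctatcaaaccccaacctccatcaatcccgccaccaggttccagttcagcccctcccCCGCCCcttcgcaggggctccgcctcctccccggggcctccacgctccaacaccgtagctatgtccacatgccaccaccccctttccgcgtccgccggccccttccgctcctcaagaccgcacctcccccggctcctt
S100A13 start 2: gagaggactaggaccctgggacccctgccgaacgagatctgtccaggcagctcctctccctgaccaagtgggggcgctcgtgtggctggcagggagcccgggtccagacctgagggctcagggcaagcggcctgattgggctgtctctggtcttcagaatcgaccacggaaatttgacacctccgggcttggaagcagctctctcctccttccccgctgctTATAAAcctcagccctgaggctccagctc
S100A13 start 3: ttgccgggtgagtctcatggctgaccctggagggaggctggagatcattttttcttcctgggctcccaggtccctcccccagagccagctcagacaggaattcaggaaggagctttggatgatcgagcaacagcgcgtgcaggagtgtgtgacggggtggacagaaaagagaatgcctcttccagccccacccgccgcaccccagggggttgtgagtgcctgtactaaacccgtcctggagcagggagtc
S100A6: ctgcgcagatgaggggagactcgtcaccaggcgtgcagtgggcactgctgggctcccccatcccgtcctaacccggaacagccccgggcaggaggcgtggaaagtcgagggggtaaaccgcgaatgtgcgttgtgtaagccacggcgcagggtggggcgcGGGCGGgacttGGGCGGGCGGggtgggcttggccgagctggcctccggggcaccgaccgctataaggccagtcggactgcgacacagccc

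The stretch before S100A13 start 1 held 1 match to GGGCGG. That before start 2 held 1 match to TATAAA, and that before start 3 held none of the 3 motifs. The S100A6 stretch held 3 matches to GGGCGG, a pair of which overlap each other. Among the 35116 RefSeq stretches of the same length, 42.6% held GGGCGG, 10.7% held TATAAA and 6.57% held TGANTCA. The files give 1 value for each gene, so which S100A13 start was used was not analysed here.

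S100A6 (chr1:153507075-153508720), or calcyclin, is a widely expressed member that binds annexins. It was the most abundant of the cluster in every library. It ranked 21st of the 55527 intervals by mean TPM with shCTDP1-#1, 6th with shCTDP1-#2 and 5th with shScr. S100A16 (chr1:153579362-153585621), a member found in many tissues, was next with shScr. S100A13, S100A4, S100A2, S100A3 and S100A5 followed in that order, and the library ranges of these neighbours did not overlap with shScr. The other 5 members stayed under 4 TPM in all shScr libraries and overlapped one another or S100A5.

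**Figure D1:**
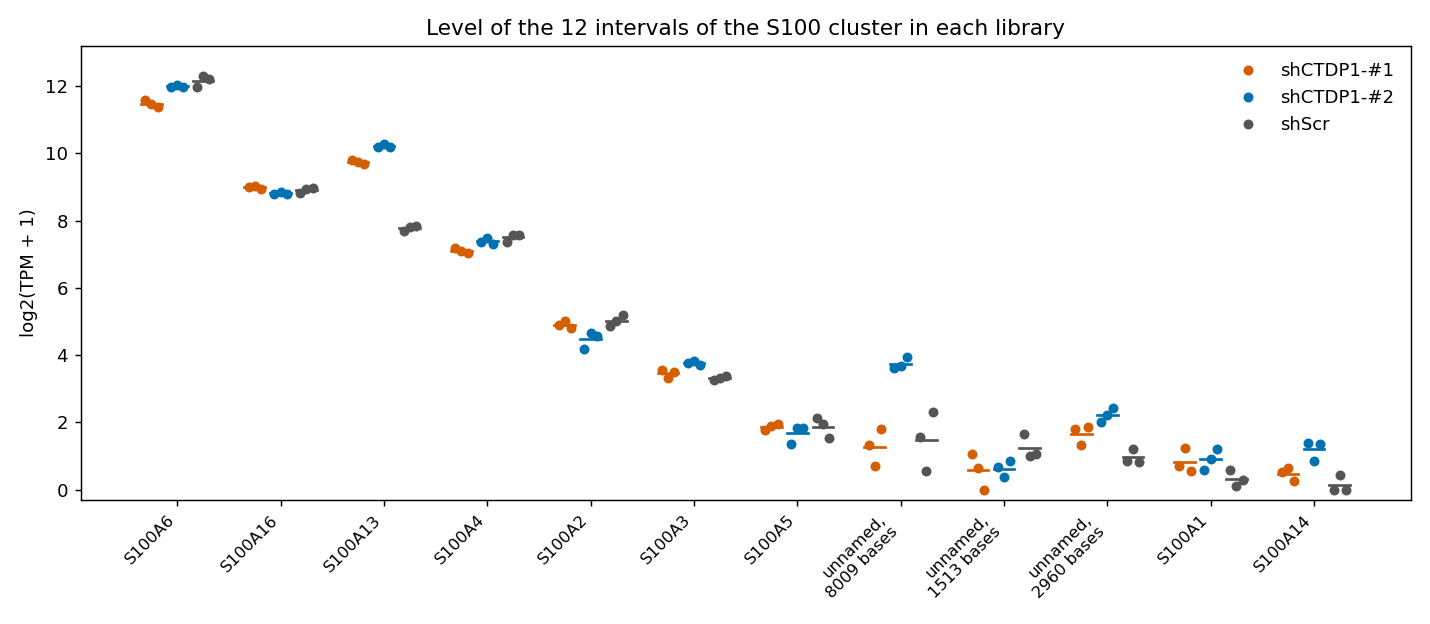
Level of the 12 members in each library on the log2(TPM + 1) scale, ordered by their mean with shScr. Points are the 3 libraries of a group and the short line is their mean. S100A13 lies above S100A16 with either CTDP1 hairpin, at means of 855 and 1190.1 TPM, and below it with shScr, at 218 TPM.

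S100A13 rose with both hairpins. It binds calcium and copper and takes part in the release of FGF1 and interleukin-1 alpha, which lack a signal peptide. S100A13 (chr1:153591263-153606568) was at 887, 862 and 816 TPM in the shCTDP1-#1 libraries, at 1166, 1244 and 1159 TPM in the shCTDP1-#2 libraries, and at 204, 224 and 227 TPM in the shScr libraries. The 3 groups did not overlap, and the lowest shCTDP1 library lay above the highest shScr library. The means were 855 ± 36.0 TPM with shCTDP1-#1, 1190.1 ± 47.2 with shCTDP1-#2 and 218 ± 12.3 with shScr (SD, n = 3 each), which is 3.91-fold and 5.45-fold the shScr mean. In bulk RNA such as this, a change in how many cells express a gene and a change in RNA per cell cannot be told apart.

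Differences between groups were tested with limma on log2(TPM + 1) over 15011 intervals, with the Benjamini-Hochberg adjusted p required to be under 0.05. The S100A13 difference was 1.96 with shCTDP1-#1 (SE 0.049, adjusted p = 8.3e-10) and 2.44 with shCTDP1-#2 (SE 0.049, adjusted p = 3.1e-10). Among all tested intervals, it was the 154th highest rise with shCTDP1-#1 and the 64th highest with shCTDP1-#2. By mean TPM, S100A13 ranked 178th with shCTDP1-#1, 127th with shCTDP1-#2 and 731st with shScr. Both comparisons share the 3 shScr libraries. Leaving out each library in turn gave differences of 1.92 to 2.00 with shCTDP1-#1 and 2.39 to 2.47 with shCTDP1-#2.

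Among the 10 members tested, 2 rose with shCTDP1-#1, against 35.4% of all tested intervals, and 2 fell, against 27.7%. With shCTDP1-#2, 4 rose, against 39.5% of all, and 1 fell, against 24.6%. The risers with each hairpin include the 2960-base interval described below, which entered the test through the groups where it was high. The share that rose was below the background with shCTDP1-#1 and near it with shCTDP1-#2, so neither count stands apart from the background. The number that fell with shCTDP1-#2 was 4 after upper-quartile scaling, against 28.1% of all intervals, and 4 after median-of-ratios scaling, against 31.3% of all. It was 4 without shScr replicate 1, against 22.8% of all, and 2 without shCTDP1-#1 replicate 3, against 24.6%. The median difference over the 10 was -0.059 with shCTDP1-#1, against 0.070 over all tested intervals, and -0.11 with shCTDP1-#2, against 0.13 over all. Median-of-ratios scaling moved both medians with shCTDP1-#2, to -0.24 over the 10 members and 0.013 over all intervals. Higher calls were 50.3% of all calls in that comparison under that scaling, against 61.6% without it.

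**Figure D2:**
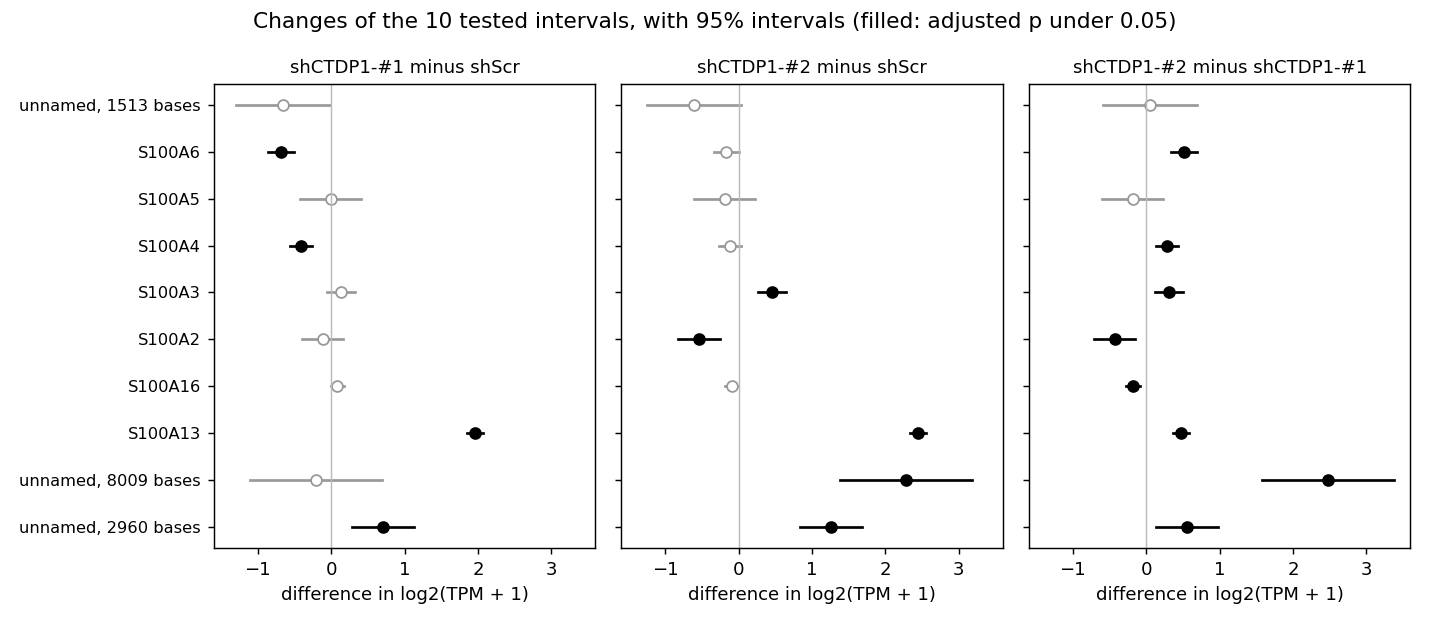
Difference in log2(TPM + 1) of the 10 tested members in each comparison, in their order along the chromosome; bars are 95% intervals from limma and filled points passed an adjusted p of 0.05. S100A13 stands farthest to the right in both comparisons with shScr, at 1.96 and 2.44, while S100A6 lies at -0.68 and -0.17.

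S100A6 fell with shCTDP1-#1. It was at 3084, 2834 and 2689 TPM in the shCTDP1-#1 libraries and at 4022, 5092 and 4745 TPM in the shScr libraries. All shCTDP1-#1 libraries lay below all shScr libraries. The difference was -0.68 (SE 0.078, limma adjusted p = 2.7e-05), and 0.621-fold by the means of 2869 ± 199.8 and 4619 ± 546 TPM (SD, n = 3 each).

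With shCTDP1-#2, S100A6 was at 4037, 4222 and 4033 TPM, so its range overlapped that of shScr, whose replicate 1 was lowest. The difference was -0.17, with a 95% interval from -0.34 to 0.0068, and did not pass the test (limma adjusted p = 0.085). That outcome depended on the libraries and the scaling. Without shScr replicate 1, the library with the high mitochondrial share, the difference was -0.26 and passed (limma adjusted p = 0.0024). Without shScr replicate 2 it was -0.093 (limma adjusted p = 0.30), and without shScr replicate 3 it was -0.14 (limma adjusted p = 0.20). With all libraries it passed after upper-quartile scaling, at -0.24 (limma adjusted p = 0.026), and after median-of-ratios scaling, at -0.30 (limma adjusted p = 0.011). Rescaling without mitochondrial intervals left it at -0.17, just past the threshold (limma adjusted p = 0.049).

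S100A4, described above as a motility-linked member, also fell with shCTDP1-#1. S100A4 (chr1:153516089-153522612) was at 144, 135 and 131 TPM in the shCTDP1-#1 libraries and at 164, 191 and 190.0 TPM in the shScr libraries, with no overlap. The difference of -0.41 passed the test (SE 0.067, limma adjusted p = 0.00037). With shCTDP1-#2 it was at 163, 178 and 158 TPM, overlapping shScr, and the difference was -0.12 (95% interval -0.27 to 0.027, limma adjusted p = 0.14). Here too the call turned when shScr replicate 1 was left out, at -0.19 (limma adjusted p = 0.017), and after upper-quartile scaling, at -0.20 (limma adjusted p = 0.038). After median-of-ratios scaling the difference passed at -0.26 (limma adjusted p = 0.013). Rescaling without mitochondrial intervals gave -0.13, which did not pass (limma adjusted p = 0.083). Other leave-outs made the difference smaller. It was -0.087 without shScr replicate 2, -0.089 without shScr replicate 3 and -0.086 without shCTDP1-#2 replicate 3 (limma adjusted p = 0.34, 0.34 and 0.35).

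S100A3, nested in S100A4, went another way. S100A3 (chr1:153519805-153521848), which binds zinc and is known from the hair cuticle, was at 12.7, 13.3 and 12.1 TPM with shCTDP1-#2 and at 8.65, 8.89 and 9.50 TPM with shScr. It rose by 0.45 without overlap (SE 0.086, limma adjusted p = 0.00094). With shCTDP1-#1 it was at 10.8, 9.03 and 10.2 TPM, a difference of 0.14 (95% interval -0.055 to 0.33, limma adjusted p = 0.19).

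S100A2 fell with shCTDP1-#2. S100A2 (chr1:153533584-153540366) encodes a protein that binds p53 and is often lost in breast tumours. It was at 17.1, 24.4 and 22.9 TPM with shCTDP1-#2 and at 28.1, 31.1 and 35.3 TPM with shScr. The groups did not overlap, and the difference was -0.54 (SE 0.13, limma adjusted p = 0.0034). With shCTDP1-#1 it was at 28.9, 31.1 and 27.0 TPM, within or near the shScr range, and the difference was -0.11 (95% interval -0.39 to 0.17, limma adjusted p = 0.46).

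S100A16, the neighbour of S100A13 among the abundant members, stayed close to its shScr level. It was at 508, 521 and 493 TPM with shCTDP1-#1, at 445, 457 and 442 TPM with shCTDP1-#2, and at 450.2, 488 and 499 TPM with shScr. The difference was 0.084 with shCTDP1-#1 (95% interval -0.0081 to 0.18, limma adjusted p = 0.10) and -0.095 with shCTDP1-#2 (95% interval -0.19 to -0.0025, limma adjusted p = 0.068). These small differences sat near the threshold. Without shScr replicate 3, the difference with shCTDP1-#1 passed at 0.11 (limma adjusted p = 0.046). Without shScr replicate 1, the difference with shCTDP1-#2 passed at -0.14 (limma adjusted p = 0.0063), and after upper-quartile scaling it passed at -0.17 (limma adjusted p = 0.010). It also passed after median-of-ratios scaling, at -0.23 (limma adjusted p = 0.0024). Rescaling without mitochondrial intervals gave -0.10 (limma adjusted p = 0.024). With shCTDP1-#1, median-of-ratios scaling gave 0.022 (limma adjusted p = 0.72). The same leave-outs weakened the other comparison. Without shScr replicate 1 the difference with shCTDP1-#1 was 0.040 (limma adjusted p = 0.34). Without shScr replicate 3 that with shCTDP1-#2 was -0.065 (limma adjusted p = 0.23).

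S100A5 (chr1:153509623-153514241), a low member known from olfactory neurons, was at 2.39, 2.70 and 2.85 TPM with shCTDP1-#1, at 1.57, 2.56 and 2.59 TPM with shCTDP1-#2, and at 3.33, 2.88 and 1.91 TPM with shScr. The groups overlapped. The differences were -0.0059 (95% interval -0.42 to 0.41) and -0.19 (95% interval -0.60 to 0.22), and neither passed the test (limma adjusted p = 0.98 and 0.39).

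S100A14 and S100A1 did not reach 1 TPM in 3 libraries and were not tested with the others. S100A14 (chr1:153586731-153589462), a member typical of epithelia, was at 0.43, 0.56 and 0.20 TPM with shCTDP1-#1, at 1.62, 0.80 and 1.58 TPM with shCTDP1-#2, and at 0, 0.35 and 0 TPM with shScr. The shCTDP1-#2 libraries lay above all others. For shCTDP1-#2 against shScr, an exact permutation test (two-sided) had p = 0.1, the smallest that 3 against 3 libraries allow. With no filter on low values, limma gave a difference of 1.06 (adjusted p = 0.0026). S100A1 (chr1:153600402-153604513), known as a regulator of calcium handling in heart muscle, was at 0.61, 1.34 and 0.47 TPM with shCTDP1-#1, at 0.51, 0.89 and 1.30 TPM with shCTDP1-#2, and at 0.50, 0.07 and 0.22 TPM with shScr. The shCTDP1-#2 libraries of S100A1 lay above all shScr libraries (exact two-sided permutation p = 0.1). With shCTDP1-#1 they overlapped shScr (p = 0.2, same exact permutation test). Neither hairpin passed for S100A1 without the filter (limma adjusted p = 0.14 and 0.087).

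The 3 unnamed intervals lie at the ends of the cluster. The interval of 8009 bases at chr1:153598808-153606816 shares 7761 bases with S100A13. It was at 1.52, 0.61 and 2.46 TPM with shCTDP1-#1, at 11.2, 11.8 and 14.5 TPM with shCTDP1-#2, and at 1.98, 0.46 and 3.90 TPM with shScr. It rose with shCTDP1-#2 by 2.28 (SE 0.40, limma adjusted p = 0.00067), without overlap. With shCTDP1-#1, where S100A13 was at 816 to 887 TPM, it overlapped shScr and differed by -0.20 (95% interval -1.10 to 0.70, limma adjusted p = 0.68).

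A shorter interval of 2960 bases at chr1:153603914-153606873 shares 2655 bases with S100A13. It was at 2.49, 1.48 and 2.63 TPM with shCTDP1-#1, at 3.04, 3.64 and 4.32 TPM with shCTDP1-#2, and at 0.80, 1.31 and 0.75 TPM with shScr. It rose by 0.70 with shCTDP1-#1 (limma adjusted p = 0.0082) and by 1.26 with shCTDP1-#2 (limma adjusted p = 0.00020). It reached 1 TPM in 1 shScr library only, so it entered the test through the groups where it was high. Whether reads of S100A13 contribute to either interval was not tested.

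The interval of 1513 bases at chr1:153506079-153507591 shares 517 bases with S100A6. It was at 1.09, 0.57 and 0 TPM with shCTDP1-#1, at 0.58, 0.29 and 0.80 TPM with shCTDP1-#2, and at 2.13, 0.99 and 1.08 TPM with shScr. The differences were -0.66 (95% interval -1.30 to -0.019, limma adjusted p = 0.068) and -0.61 (95% interval -1.25 to 0.034, limma adjusted p = 0.089). This interval reached 1 TPM only in shScr replicates 1 and 3 and in shCTDP1-#1 replicate 1. It thus entered the test mainly through the group where it was high. The call turned with shCTDP1-#1 when its replicate 1 was left out, at -0.91 (limma adjusted p = 0.022). The filter was still that of all 9 libraries, so this pass dropped a library through which the interval entered the test. Leaving out shCTDP1-#1 replicate 3 gave -0.37 (limma adjusted p = 0.25) and leaving out shScr replicate 1 gave -0.45 (limma adjusted p = 0.23). With shCTDP1-#2 the difference of -0.61 passed when shCTDP1-#1 replicate 3, which bears only on the shared spread, was left out (limma adjusted p = 0.046). It also passed with the compared groups alone (limma adjusted p = 0.048). In that comparison, leaving out shScr replicate 1 gave -0.40 (limma adjusted p = 0.29). Leaving out shCTDP1-#2 replicate 2 gave -0.48 (limma adjusted p = 0.23).

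S100A13 took a larger part of the cluster's summed TPM with either hairpin. Such shares are formed within a library, so no scaling between libraries enters them. S100A13 made up 19.4% ± 0.34 of the summed TPM of the 12 members with shCTDP1-#1, 20.0% ± 0.20 with shCTDP1-#2 and 3.96% ± 0.24 with shScr (SD, n = 3 each). S100A6 made up 65.0% ± 0.93 with shCTDP1-#1, 68.8% ± 0.21 with shCTDP1-#2 and 83.2% ± 1.01 with shScr. The shCTDP1 libraries did not overlap the shScr libraries in either share. Each of these 4 differences had p = 0.1 in the exact two-sided permutation test, the smallest the design allows. The shares of a library sum to a whole, so the lower S100A6 share is not separate from the higher S100A13 share.

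**Figure D3:**
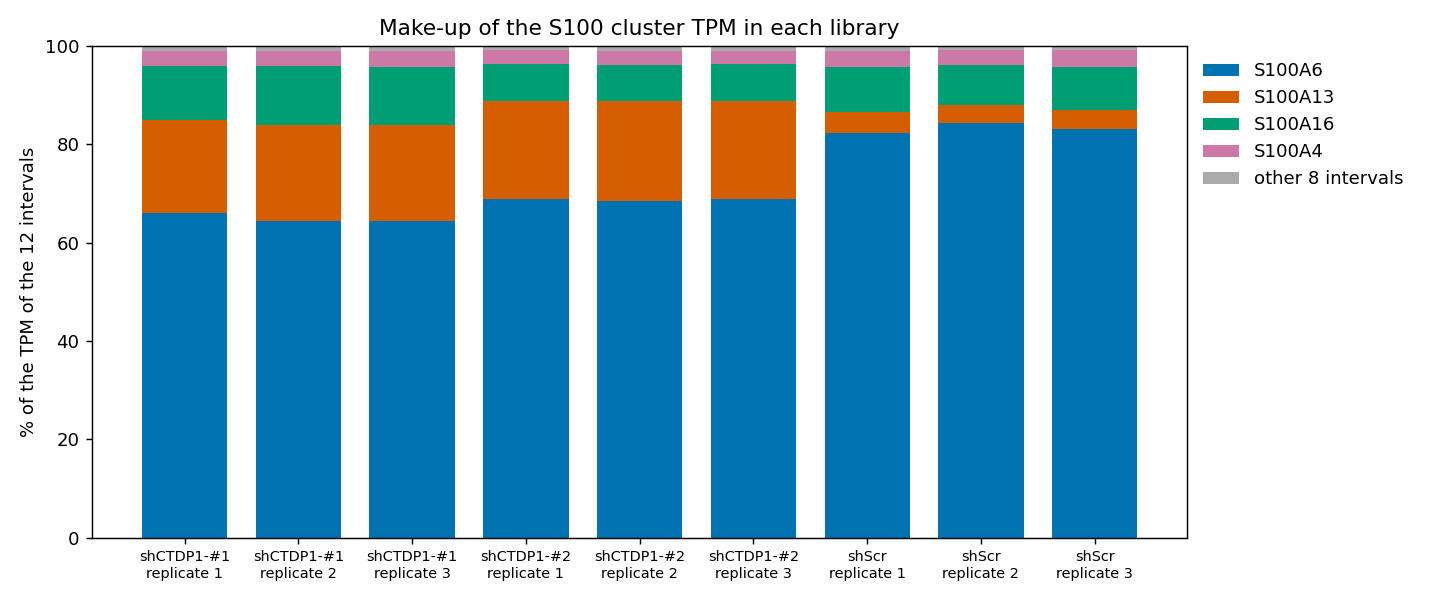
Share of the summed TPM of the 12 members taken by S100A6, S100A13, S100A16, S100A4 and the other 8 members, as stacked bars for each library. S100A13 takes 18.98% to 20.2% in the 6 shCTDP1 libraries and 3.70% to 4.18% in the shScr libraries.

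As a ratio within each library, S100A13 was at 28.7%, 30.4% and 30.3% of the S100A6 level with shCTDP1-#1, at 28.9%, 29.5% and 28.7% with shCTDP1-#2, and at 5.08%, 4.39% and 4.79% with shScr. The libraries of both hairpins overlapped in this ratio although both genes differed between the hairpins in level. The difference of shCTDP1-#2 from shCTDP1-#1 was -0.80 percentage points (exact two-sided permutation p = 0.3). Relative to S100A16, the hairpins did not overlap: S100A13 was at 2.62, 2.72 and 2.62 times S100A16 with shCTDP1-#2 and at 1.75, 1.65 and 1.65 times with shCTDP1-#1. With shScr it was at 0.454, 0.459 and 0.456 times S100A16.

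The summed TPM of the cluster was 4415 ± 248 with shCTDP1-#1, 5958 ± 176 with shCTDP1-#2 and 5547 ± 595 with shScr (SD, n = 3 each). It was lower than shScr in all shCTDP1-#1 libraries (exact two-sided permutation p = 0.1). The shCTDP1-#2 libraries overlapped those of shScr (p = 0.4, same exact permutation test). Without S100A6 and S100A13 the sum was 691 ± 18.3, 669.9 ± 20.5 and 709 ± 43.1 TPM in the same order of groups, and it overlapped shScr with either hairpin.

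The hairpins were also compared with each other. Of the 10 tested members, 6 were higher with shCTDP1-#2 than with shCTDP1-#1, against 30.2% of all tested intervals, and 2 were lower, against 20.0%. Over all intervals, 60.2% of calls were higher with shCTDP1-#2, and 50.5% after median-of-ratios scaling. S100A6 was at 4098 ± 108 TPM with shCTDP1-#2 and at 2869 ± 199.8 TPM with shCTDP1-#1, a difference of 0.52 (SE 0.078, limma adjusted p = 0.00031). S100A13 was higher by 0.48 (SE 0.049, limma adjusted p = 2.1e-05), at 1190.1 ± 47.2 against 855 ± 36.0 TPM. S100A4 was higher by 0.28 (limma adjusted p = 0.0051) and S100A3 by 0.32 (limma adjusted p = 0.011).

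S100A2 and S100A16 were the 2 that were lower with shCTDP1-#2 than with shCTDP1-#1, by -0.43 (limma adjusted p = 0.016) and -0.18 (limma adjusted p = 0.0046). The S100A2 call was lost without shCTDP1-#1 replicate 2, at -0.38 (limma adjusted p = 0.057). The 8009-base interval was higher by 2.48 with shCTDP1-#2 (SE 0.40, limma adjusted p = 0.00058), the 6th highest difference of the 15011. For the 2960-base interval the difference of 0.56 (limma adjusted p = 0.033) did not pass when shCTDP1-#1 replicate 2 (0.38), shCTDP1-#2 replicate 2 (0.56) or shCTDP1-#2 replicate 3 (0.46) was left out, with limma adjusted p of 0.073 to 0.12.

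The region has unlike surroundings on its 2 sides. These flanks were taken by position and their intervals were not named. Whether other S100 genes lie among them was therefore not analysed here. Of the 56 intervals in the 1 Mb before the region, 33 were listed at 0 TPM in all libraries and none reached 1 TPM in 3 libraries. The highest value there was 1.27 TPM in any library, and their sum in a library was between 0.19 and 3.77 TPM. The 12 members summed to between 4175 and 6160 TPM. In the 1 Mb after the cluster, 19 of 46 intervals were tested. With shCTDP1-#1, 7 of them rose and 6 fell, with a median difference of 0.10. With shCTDP1-#2, 8 rose and 6 fell, with a median of 0.068. The shares that rose, 36.8% and 42.1%, were near the 35.4% and 39.5% of all tested intervals. The share that fell was 31.6% with either hairpin, against 27.7% with shCTDP1-#1 and 24.6% with shCTDP1-#2 of all tested intervals. The highest rise among the 19 was 0.96 with shCTDP1-#1 and 1.14 with shCTDP1-#2, below the 1.96 and 2.44 of S100A13.

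**Figure D4:**
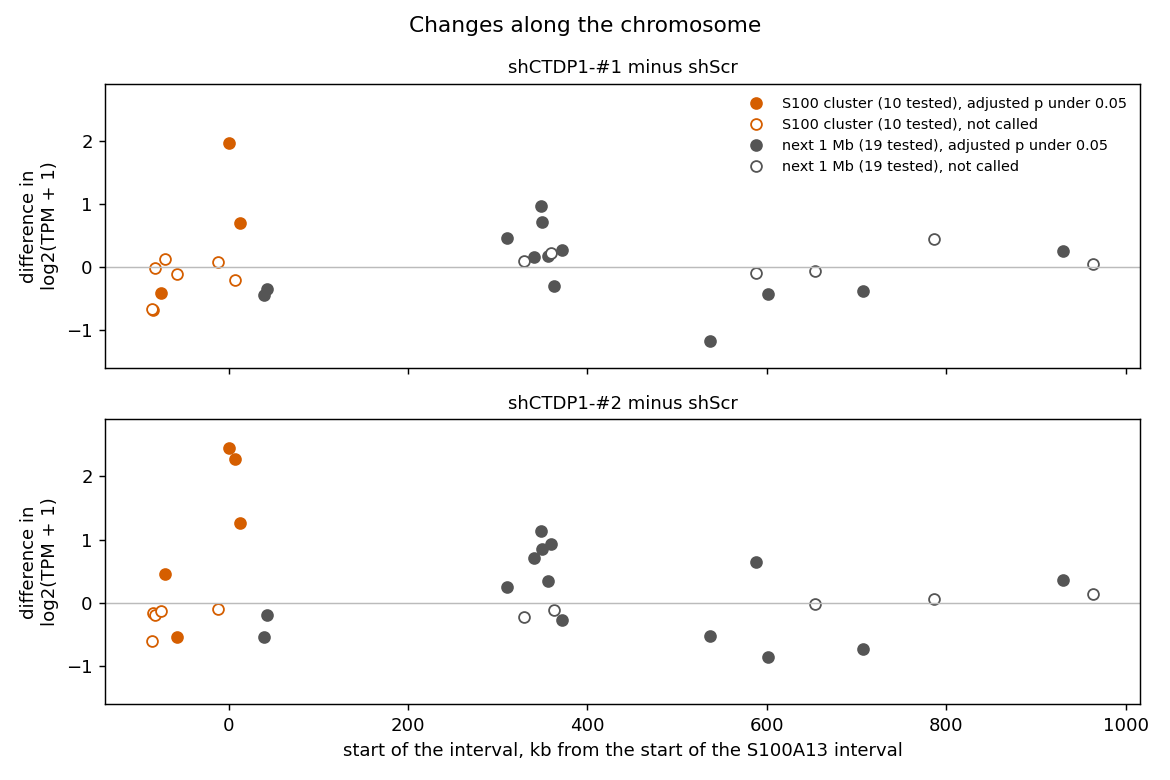
Difference in log2(TPM + 1) against the distance of each tested interval's start from that of S100A13, for the 10 tested members and the 19 tested intervals of the next 1 Mb. Filled points passed an adjusted p of 0.05. The 2 tested intervals nearest after the cluster lie below 0, at -0.44 and -0.35 with shCTDP1-#1 and at -0.53 and -0.19 with shCTDP1-#2.

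One further interval crosses the end of the region. It lies at chr1:153606525-153618782 and shares 44 bases with the S100A13 interval. It was at 62.2, 59.1 and 61.6 TPM with shCTDP1-#1, at 93.6, 89.1 and 88.8 TPM with shCTDP1-#2, and at 90.2, 91.3 and 92.3 TPM with shScr. It fell with shCTDP1-#1 by 0.57 on the log2(TPM + 1) scale (SE 0.040, limma adjusted p = 7.0e-07). With shCTDP1-#2 the difference was -0.012 (limma adjusted p = 0.81). The interval that touches S100A13 on its far side thus fell with shCTDP1-#1, while S100A13 rose.

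The intervals most like S100A6 and S100A13 over the 9 libraries were sought among 10776 intervals with a mean of at least 5 TPM, off the X and Y chromosomes. Likeness was the Euclidean distance between log2(TPM + 1) values after subtracting each interval's own mean. For S100A6 the closest was chr3:169940153-170023769, at a distance of 0.20 and with means of 24.2 TPM with shCTDP1-#1, 35.2 with shCTDP1-#2 and 40.6 with shScr. For S100A13 it was chr19:42656721-42661675, at 0.27, with means of 6.33 TPM with shCTDP1-#1, 9.09 with shCTDP1-#2 and 0.873 with shScr. That interval met the required mean of 5 TPM only through the groups where it was high. The shScr mean of that interval lies below the added 1 TPM, so the log2(TPM + 1) scale understates its change. Its likeness to S100A13 thus holds on that scale only. Both lie on other chromosomes than the cluster. For the 2960-base interval it was chr3:196281056-196295545, at 0.39.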

How the data were processed

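The deposited values are TPM per genomic interval, in a separate file for each of the 9 libraries. The unit was read from the column sums, which are alike in all libraries. The submitters' processing notes name STAR, RSEM and hg19, and the versions are not given in the sources used here. Rows that share an interval with another row (2246 of 57773) were left out. The files carry no gene names. Other S100 genes, S100 partners and cell markers were not analysed here, because the annotation at hand is of another build. The members and lists were chosen with earlier results of these data known.

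The test took intervals that reached 1 TPM in 3 or more libraries. log2(TPM + 1) was fitted with limma 3.58.1 (R 4.3.3, trend and robust options), with the 3 group means over all 9 libraries. The fit was tested on simulated data. A difference on the log2(TPM + 1) scale understates the change of low intervals. Single values were compared with exact permutation tests (scipy 1.17.1). All 12 members are accounted for; the closest profile was sought for the most abundant member and for each member called with both hairpins. Alternatives changed the pseudocount, filter, scaling, libraries, block, groups in the fit, fold threshold and sequences.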

Additional observations from a re-analysis of the deposited data

Results flagged for a closer look

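The response of 8 members was unlike with each hairpin when limma tested that difference itself (adjusted p under 0.05). Of all tested intervals, 50.2% passed that test in either direction. In log2(TPM + 1), shCTDP1-#2 minus shCTDP1-#1, the difference was 0.52 for S100A6, 0.28 for S100A4, 0.32 for S100A3, -0.43 for S100A2, -0.18 for S100A16 and 0.48 for S100A13. It was 2.48 for the unnamed interval of 8009 bases and 0.56 for that of 2960 bases. The 2960-base call was lost with median-of-ratios scaling (limma adjusted p = 0.0506), with a pseudocount of 0.1 TPM (0.0565) and with no filter beyond a value above 0 (0.066). The level of CTDP1 with each hairpin was not analysed here, and its part in these differences was not tested. Groups of 3 libraries are too small for the search for single outlying libraries.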

How the results depend on the processing

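All alternatives were planned except the rescaling without mitochondrial intervals, which was chosen after seeing the data. Of the values of single members under the alternatives, 518 kept their direction and side of the threshold, 15 passed only there, 20 no longer passed and 8 changed sign. S100A13 stayed risen against shScr with both hairpins in all of them. The number that rose with shCTDP1-#1 was 1 with a 5 TPM filter, since fewer members were tested, against 37.7% of all intervals. Against a fold change of 1.5, 1 rose with shCTDP1-#1, 3 with shCTDP1-#2 and 1 between the hairpins. The shares of all intervals were 7.9%, 9.5% and 2.8%. The numbers that fell against that fold were 0 with shCTDP1-#1, 0 with shCTDP1-#2 and 0 between the hairpins. Of all intervals, 5.8%, 3.8% and 1.6% fell. The number that fell with shCTDP1-#2 was 4 after upper-quartile scaling, 4 after median-of-ratios scaling, 3 after rescaling without mitochondrial intervals and 2 with the compared groups alone. The shares of all intervals were 28.1%, 31.3%, 24.8% and 24.2%. Leaving out each library, that number ran from 1 to 4, against 22.4% to 24.6% of all. The number lower with shCTDP1-#2 than with shCTDP1-#1 ran from 1 to 2, against 17.7% to 19.9%. The sign changes were all of differences that did not pass. They were S100A5 with shCTDP1-#1 (0.00052 with a pseudocount of 0.1 TPM, -0.17 to 0.12 leaving out libraries), the 8009-base interval with shCTDP1-#1 (-0.66 to 0.21) and the 1513-base interval between the hairpins (-0.23 to 0.30). With the replicate block, S100A13 differed by 1.96 and 2.44; of all calls, that of the 2960-base interval between the hairpins was lost (0.56). Residuals of same-numbered libraries correlated at -0.0066 to 0.053. Where the numbers were unlike, the correlation ran from -0.046 to 0.024. All of these values are small, yet 9 of 9 libraries correlated best, on average, with their own number. Whether the numbers mark a weak pairing of the libraries is therefore not settled. TPM gives no depth, so no limit of detection is given for the low members.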
